A study of Mus musculus with 16 samples.

Results

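The receptors, kinase, transcription factors and feedback inhibitors that carry interferon signals were measured in whole kidneys of 16 mice on one-colour Agilent microarrays. The set held 9 genes of the 22911 named on the array: *Ifnar1*, *Ifnar2*, *Ifngr1*, *Ifngr2*, *Jak1*, *Stat2*, *Stat3*, *Socs1* and *Socs3*. They were found as the probes whose transcript accession belongs to one of these genes, which gave 14 probes of 56605. The genes belong together by their role in the pathway, and no measured value enters the rule that picks their probes. Each gene is described by its brightest probe, and all 9 of these probes were well above background on all 16 arrays.

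Type I interferons (IFN-α and IFN-β) bind a receptor built from IFNAR1 and IFNAR2, and IFN-γ binds one built from IFNGR1 and IFNGR2. JAK1 is a tyrosine kinase bound to both receptors. STAT2 acts in the type I pathway with IRF9 at interferon-stimulated response elements, whereas STAT3 is the main factor behind the IL-6 family of cytokines. SOCS1 and SOCS3 are induced by STATs and shut the pathway down, SOCS1 by blocking JAKs and SOCS3 mainly at the IL-6 family receptor gp130. In lupus nephritis, interferon-stimulated genes are a well known feature of the kidney.

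The groups were wild-type mice, *Fcgr2b*-/- mice, double-deficient mice lacking both *Fcgr2b* and *Sting*, and *Sting* gt/gt mice, with 4 mice in each and 1 mouse per array, all labelled 6 months old. FcγRIIB is the inhibitory receptor for IgG, and its loss gives a lupus model. STING senses cyclic dinucleotides and turns on type I interferon. The gt allele is a loss-of-function allele. Wild-type and *Sting* gt/gt mice were labelled C57BL/6, and both *Fcgr2b*-deficient groups 129/C57BL/6, so loss of *Fcgr2b* and the mixed background cannot be told apart. Wild-type mice were bought, whereas the *Fcgr2b*-deficient groups came from an intercross. The labels name only the *Fcgr2b* deletion for the single-deficient group, whereas the study's legends head it *Sting* wt/gt. These mice may thus carry 1 *Sting* gt allele, in which case the double-deficient comparison and the interaction are not against mice with intact *Sting*. The study asked whether loss of STING alters disease in *Fcgr2b*-/- mice, and the comparisons below ask whether the interferon signalling genes followed.

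Levels are log2 signal after subtraction of each array's 75th percentile, so a level of 0 is that percentile. *Fcgr2b* itself was between 1.14 and 2.13 in wild-type, between 0.02 and 0.70 in *Fcgr2b*-/- and between −0.40 and 0.50 in double-deficient kidneys. In *Sting* gt/gt kidneys it was 1.54, 1.05, 0.70 and −0.19, so the library labelled *Sting* gt/gt replicate 4 was as low as the *Fcgr2b*-deficient ones. *Sting1* transcript did not separate the genotypes, and its level checks no label here. The kidney markers *Slc34a1* (proximal tubule) and *Umod* (thick limb) were well above background on all 16 arrays. Between 28441 and 35564 probes per array were well above background. *Fcgr2b*-/- replicates 1 and 4 stood apart from replicates 2 and 3 in what follows, and so did wild-type replicate 1 from the other wild-type mice. The fat cell gene *Adipoq* was 2.65, 2.63 and 1.11 in replicate 1 of wild-type, *Fcgr2b*-/- and *Sting* gt/gt. It was below 0 on all other arrays (−3.41 in *Fcgr2b*-/- replicate 4). The part of fat in the values of these mice was not tested. *Sting* gt/gt replicate 4 held the highest level for 20.5% of all tested probes.

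The 250 bases before the start of each gene were read to show which members carry the elements that STATs recognise. RefSeq (GRCm38.p6) gave this stretch for all 9 genes. The interferon-stimulated response element core (GAAA, any 2 bases, GAAA) was searched on both strands and is in 2.98% of 32851 promoters of this length. The gamma-activated site TTCNNNGAA, which reads the same on both strands, is in 7.02%. The response element core was in *Socs1* and *Stat2*. The gamma-activated site was in *Socs3* and *Ifnar2*. The 3 members whose levels are described most closely below are printed 5′ to 3′ on the strand of the gene, with the matching bases in capitals.
*Stat2*, chr10:128270248-128270497, plus strand: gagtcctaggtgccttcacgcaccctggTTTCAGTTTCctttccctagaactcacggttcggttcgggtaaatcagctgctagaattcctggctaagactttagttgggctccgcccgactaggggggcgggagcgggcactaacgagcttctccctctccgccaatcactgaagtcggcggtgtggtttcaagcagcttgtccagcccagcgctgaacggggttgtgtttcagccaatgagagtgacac
*Socs1*, chr16:10785537-10785786, minus strand: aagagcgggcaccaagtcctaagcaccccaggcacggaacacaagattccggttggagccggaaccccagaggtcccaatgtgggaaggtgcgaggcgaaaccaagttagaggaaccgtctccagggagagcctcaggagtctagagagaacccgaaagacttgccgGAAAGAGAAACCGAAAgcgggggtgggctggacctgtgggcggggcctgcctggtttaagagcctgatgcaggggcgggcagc
*Socs3*, chr11:117969367-117969616, minus strand: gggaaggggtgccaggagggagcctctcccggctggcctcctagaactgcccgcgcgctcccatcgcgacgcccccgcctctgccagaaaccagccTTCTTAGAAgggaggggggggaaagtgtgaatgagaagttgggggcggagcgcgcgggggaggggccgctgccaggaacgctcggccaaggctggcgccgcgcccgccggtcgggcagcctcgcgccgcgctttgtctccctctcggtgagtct
In *Socs1*, 2 overlapping cores lay 83 to 68 bases before the start, on the strand of the gene. In *Stat2* the core lay 222 to 213 bases before the start, on the opposite strand. The *Socs3* site lay 154 to 146 bases before the start. The stretch before *Socs3* was 71.6% G and C, compared with a mean of 53.2% over all promoters. The other 5 members held neither motif in these letters within this window.

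The feedback inhibitor *Socs3* had the largest difference among the 9 genes. Its levels in *Fcgr2b*-/- kidneys were 3.20, −0.46, −0.31 and 2.34, compared with −0.48, −2.35, −1.54 and −0.87 in wild-type. All 4 *Fcgr2b*-/- mice lay above all 4 wild-type mice, but replicate 2 (−0.46) barely cleared the highest wild-type mouse (−0.48), and replicates 1 and 4 carried most of the difference. The difference was 2.50 on the log2 scale (SE 0.70, 95% confidence interval 1.01 to 3.99), or 5.66-fold. With adjustment over all probes it did not pass (limma, adjusted p = 0.686). The exact two-sided Mann-Whitney test gave p = 0.0286 (n = 4 and 4), the smallest that this design allows, and 0.62% of all tested probes were likewise higher without overlap (1.24% higher or lower). Among all probes, 0.34% were higher without overlap and at least 2-fold apart.

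The mean of the white cell markers *Ptprc*, *Coro1a* and *Laptm5* moved with *Socs3*. Single markers did not always do so. In *Sting* gt/gt kidneys, *Laptm5* was highest in replicate 3 (0.66), where *Socs3* was lowest (−0.94). The mean level of the 3 markers, relative to the wild-type mean, ran from 0.43 to 3.82 in *Fcgr2b*-/-, from −0.78 to 1.44 in wild-type, from 0.25 to 1.40 in double-deficient and from 0.18 to 1.79 in *Sting* gt/gt kidneys. All 3 of 3 markers had an unadjusted p under 0.05 in *Fcgr2b*-/- compared with wild-type, against 3.35% of all probes. For macrophage and dendritic cell genes, 5 of 8 did so (6 positive and 2 negative differences), and for the early stress response genes, 5 of 10. For T cell genes it was 0 of 7, for B and plasma cell genes 0 of 5 and for neutrophil genes 0 of 4. Of kidney cell genes, all 6 proximal tubule genes had a negative difference (median −0.43) and all 5 podocyte genes a positive one (median 0.75), with 0 and 1 at an unadjusted p under 0.05. The medians were 0.43 and −0.39 in double-deficient compared with *Fcgr2b*-/- kidneys. In *Fcgr2b*-/- compared with wild-type, thick limb and distal tubule genes had 2 positive and 3 negative differences, 1 of them lower at an unadjusted p under 0.05. Endothelial genes had 2 positive and 2 negative differences, with 0 at that p. All 3 white cell markers were well above background on all 16 arrays, and the part of these cell type and stress genes in the *Socs3* values was not tested. In a whole kidney, a change in the number of cells of a type and a change in RNA per cell cannot be told apart. The paper states that the kidneys were not perfused, so it could not say whether the interferon signature came from blood or kidney. All 6 red cell genes had a negative difference in *Fcgr2b*-/- compared with wild-type (median −0.37), with 0 at an unadjusted limma p under 0.05. The part of blood in these values was not tested. The arrays lay on 2 slides. On the first, *Socs3* was higher by 3.11 in *Fcgr2b*-/- (3 mice) than in wild-type (2 mice), and on the second by 0.89 (1 and 2 mice).

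In double-deficient kidneys, *Socs3* was −0.51, −0.40, −0.26 and −0.84. These levels sat beside those of *Fcgr2b*-/- replicates 2 and 3 and below replicates 1 and 4. The difference from *Fcgr2b*-/- was −1.69 (SE 0.70, interval −3.19 to −0.20, limma adjusted p = 1.0), and the groups overlapped (exact Mann-Whitney p = 0.2, n = 4 and 4). Without *Fcgr2b*-/- replicate 1 it was −1.03. Within the first slide it was −2.20, where 1 double-deficient mouse lay, and within the second −0.19. Compared with wild-type, double-deficient kidneys were higher by 0.81 (SE 0.70, interval −0.69 to 2.30), and the groups overlapped.

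*Socs3* in *Sting* gt/gt kidneys was 0.66, −0.75, −0.94 and −0.69, with replicate 1 far above the other 3. The difference from wild-type was 0.88 (SE 0.70, limma adjusted p = 0.733). The interaction asks whether the effect of STING loss differed between mice with and without *Fcgr2b*. For *Socs3* it was −2.57 (SE 0.99, interval −4.68 to −0.46), and limma gave an adjusted p of 0.661.

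*Socs1* followed the same mice at a smaller size. Its levels were −1.84, −2.77, −2.27 and −2.02 in wild-type and −0.19, −1.98, −2.51 and −0.82 in *Fcgr2b*-/- kidneys. Replicates 1 and 4 of *Fcgr2b*-/- were above every wild-type mouse, and replicates 2 and 3 fell within the wild-type range. Double-deficient kidneys had −2.52, −2.08, −2.20 and −2.66, and *Sting* gt/gt kidneys −1.07, −2.30, −2.64 and −1.86. The difference between *Fcgr2b*-/- and wild-type was 0.85 (SE 0.45, interval −0.11 to 1.82, limma adjusted p = 1.0). It was 0.46 without *Fcgr2b*-/- replicate 1. Double-deficient kidneys differed from *Fcgr2b*-/- by −0.99 (SE 0.45, interval −1.95 to −0.03, limma adjusted p = 1.0), and by −0.59 without that mouse. Within slides, the difference between *Fcgr2b*-/- and wild-type was 1.31 on the first and −0.36 on the second.

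**Figure D1:**
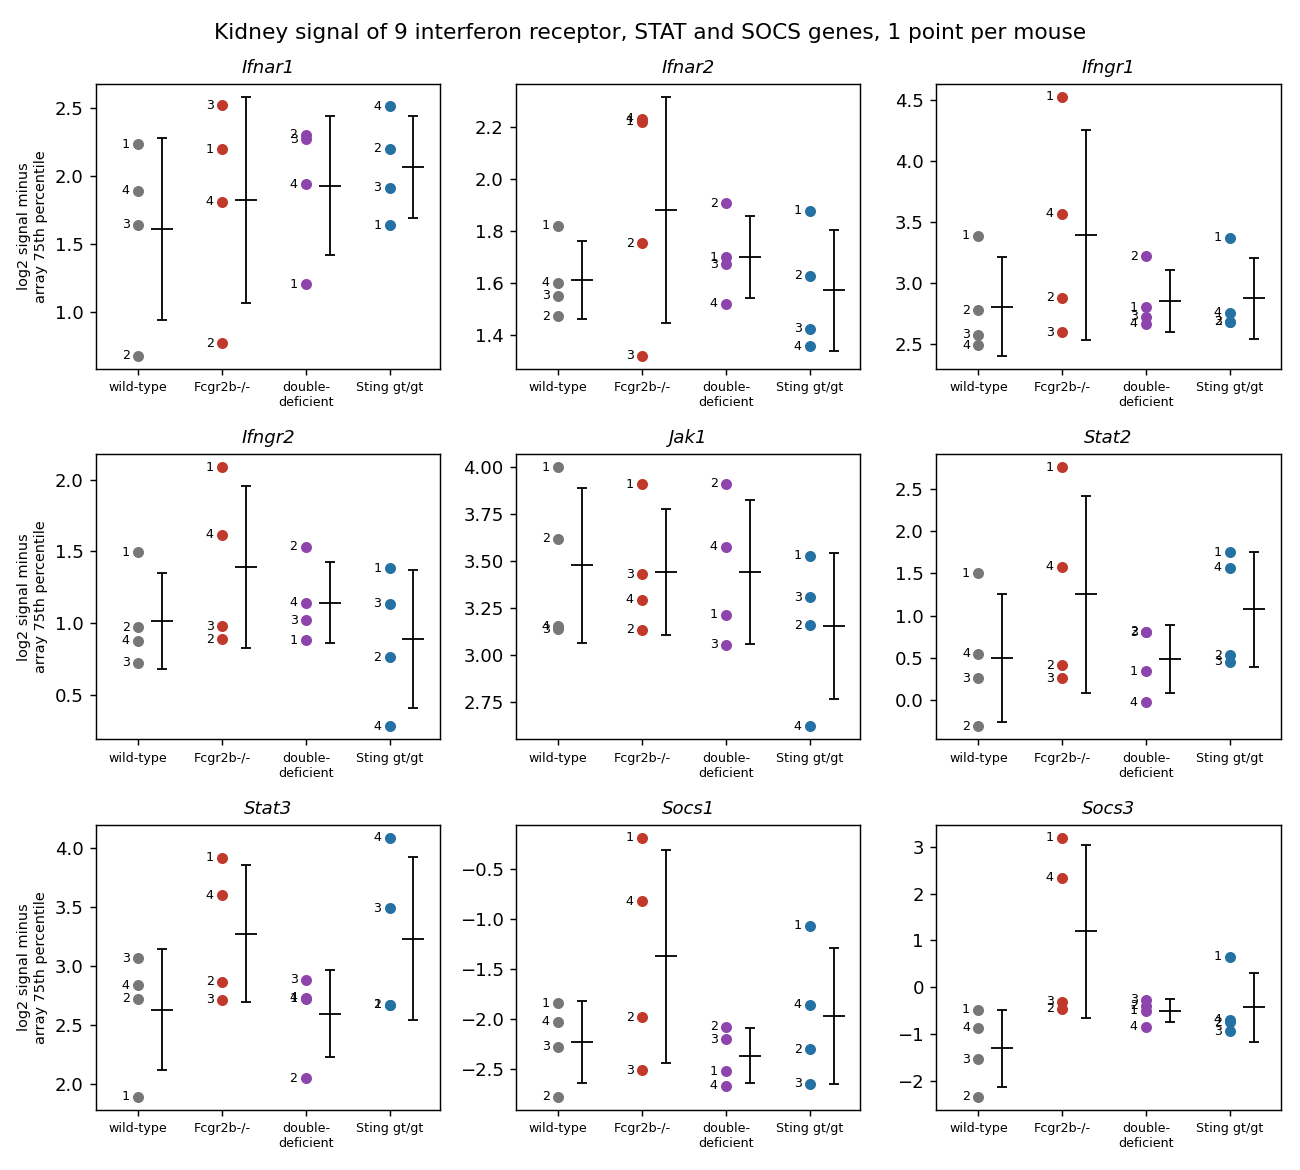
Level of each of the 9 genes in every mouse (log2 signal minus the array's 75th percentile, each panel with its own axis). Points are mice, numbered by replicate, and bars are mean ± SD of 4. *Fcgr2b*-/- replicates 1 and 4 sit above the other 2 for all genes except *Ifnar1* and *Jak1*. The 4 groups overlap for all genes except *Socs3*, where *Fcgr2b*-/- and wild-type do not.

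*Stat2*, the type I interferon STAT, was 2.76, 0.41, 0.26 and 1.58 in *Fcgr2b*-/- and 1.51, −0.31, 0.26 and 0.55 in wild-type kidneys. Replicate 1 of each group was its highest mouse. The difference of 0.75 (SE 0.53, interval −0.37 to 1.88) did not pass (limma adjusted p = 1.0), and the groups overlapped. It came to 0.25 without *Fcgr2b*-/- replicate 1 and to 1.09 without wild-type replicate 1. Double-deficient levels of 0.34, 0.81, 0.80 and −0.03 differed from *Fcgr2b*-/- by −0.77 (SE 0.53), or by −0.27 without *Fcgr2b*-/- replicate 1. In *Sting* gt/gt kidneys the levels were 1.75, 0.53, 0.45 and 1.57, a difference of 0.58 (SE 0.53) from wild-type. The level of 1.57 is that of replicate 4, whose label is in doubt, and it enters the interaction as well. The interaction was −1.35 (SE 0.75, limma adjusted p = 0.661). A further *Stat2* probe was above background on only 2 arrays, both *Fcgr2b*-/-, and was not tested.

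*Stat3* had a different pattern over the mice. It was 1.89, 2.72, 3.07 and 2.84 in wild-type and 3.92, 2.87, 2.72 and 3.6 in *Fcgr2b*-/- kidneys. Wild-type replicate 1, which was high for most of the other members, was the lowest of its group here. *Sting* gt/gt kidneys had 2.67, 2.67, 3.49 and 4.09, and double-deficient kidneys 2.73, 2.05, 2.88 and 2.73. The highest level of all 16 mice was that of the library labelled *Sting* gt/gt replicate 4, whose label is in doubt. *Fcgr2b*-/- differed from wild-type by 0.65 (SE 0.38, interval −0.17 to 1.46), or by 0.40 without wild-type replicate 1. *Sting* gt/gt differed from wild-type by 0.60 (SE 0.38), or by 0.31 without its replicate 4 and 0.35 without wild-type replicate 1. The interaction was −1.28 (SE 0.54, interval −2.43 to −0.13, limma adjusted p = 0.661), and −0.99 without replicate 4. A dimmer probe of *Stat3* correlated with the brighter one with r = 0.62 over the 16 arrays. By that probe the interaction was −0.47 (SE 0.51) and the *Sting* gt/gt difference 0.22 (SE 0.36), so the size of both depends on the probe.

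The IFN-γ receptor chains came next in size. *Ifngr1*, the ligand-binding chain, was 4.53, 2.88, 2.60 and 3.56 in *Fcgr2b*-/- and 3.39, 2.77, 2.58 and 2.49 in wild-type kidneys. The difference was 0.59 (SE 0.36, interval −0.19 to 1.36), and 0.21 without *Fcgr2b*-/- replicate 1. *Ifngr2*, the signalling chain, was 2.09, 0.89, 0.98 and 1.62 in *Fcgr2b*-/- and 1.49, 0.97, 0.72 and 0.88 in wild-type kidneys, a difference of 0.38 (SE 0.31), and 0.14 without *Fcgr2b*-/- replicate 1. Again the higher *Fcgr2b*-/- mice were replicates 1 and 4. In double-deficient kidneys *Ifngr1* lay between 2.66 and 3.22 and *Ifngr2* between 0.88 and 1.53. In *Sting* gt/gt kidneys they lay between 2.68 and 3.37 and between 0.28 and 1.38. Every one of these ranges overlapped the wild-type range.

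The type I receptor genes had small differences between genotypes. *Ifnar2* was 2.22, 1.75, 1.32 and 2.23 in *Fcgr2b*-/- and 1.82, 1.47, 1.55 and 1.6 in wild-type kidneys, a difference of 0.27 (SE 0.23, interval −0.23 to 0.77). Its second probe had group means of −0.13 in wild-type, 0.55 in *Fcgr2b*-/-, 0.13 in double-deficient and 0.74 in *Sting* gt/gt kidneys, so the probes differed in the *Sting* gt/gt comparison (0.87, SE 0.58, compared with −0.04, SE 0.23). Neither passed the test. *Ifnar1* was 2.20, 0.77, 2.52 and 1.81 in *Fcgr2b*-/- and 2.24, 0.68, 1.64 and 1.89 in wild-type kidneys, a difference of 0.21 (SE 0.41). Replicate 2 was the lowest mouse in both groups. The brightest *Ifnar1* probe correlated with the other 2 probes of the gene with r of only 0.33 and 0.28 over 16 arrays, whereas those 2 correlated with r = 0.67, so the *Ifnar1* values depend on the probe.

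*Jak1*, the kinase shared by both receptors, was 3.48 ± 0.41 in wild-type, 3.44 ± 0.33 in *Fcgr2b*-/-, 3.44 ± 0.38 in double-deficient and 3.15 ± 0.39 in *Sting* gt/gt kidneys (mean ± SD, n = 4). The difference between *Fcgr2b*-/- and wild-type was −0.04, with a 95% interval of −0.65 to 0.58. The sign of this value turned under quantile normalisation. Wild-type replicate 1 had the highest *Jak1* level, 4.0.

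**Figure D2:**
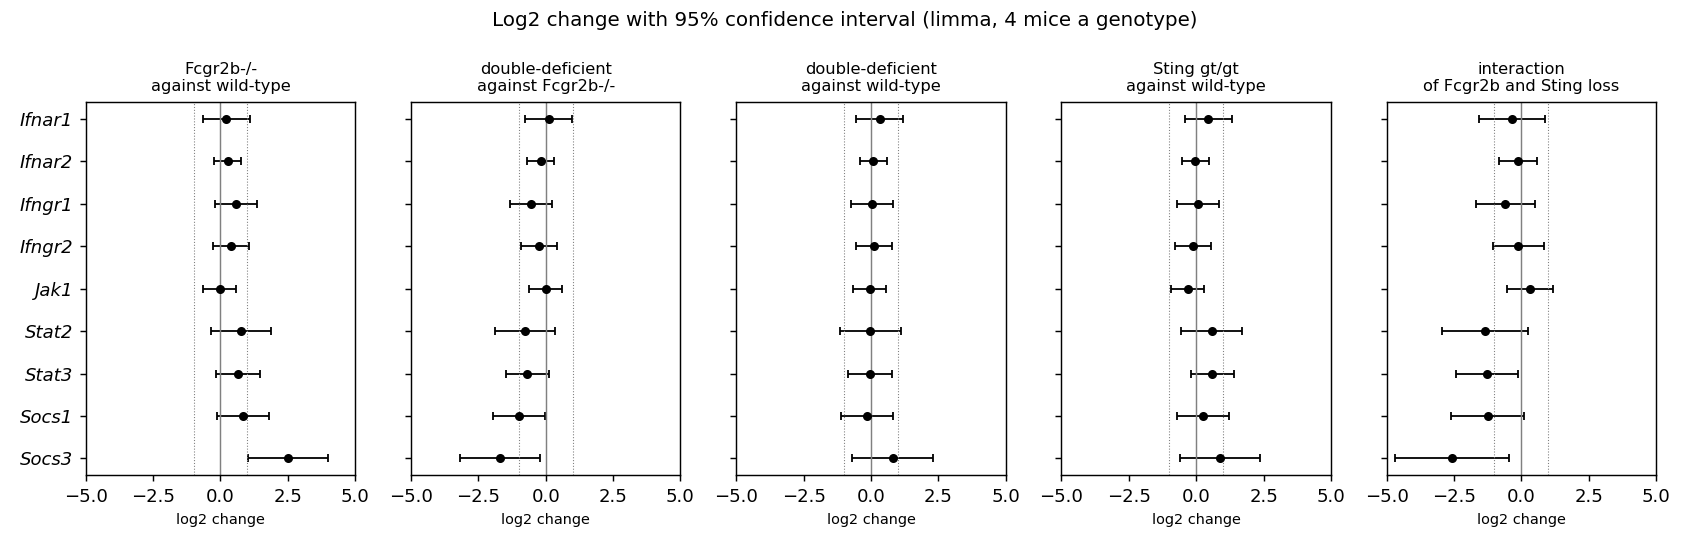
Log2 difference of each gene in the 5 comparisons, with 95% confidence intervals from limma (n = 4 mice per genotype). Dotted lines mark a 2-fold difference. The interval for *Socs3* in *Fcgr2b*-/- compared with wild-type, 1.01 to 3.99, is the only one of that panel that excludes 0.

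None of the 9 genes passed the limma threshold of adjusted p under 0.05 and at least 2-fold in *Fcgr2b*-/- compared with wild-type, where 0.0505% of all 35628 tested probes did. None passed in the other 4 comparisons either, where no probe at all passed (0%). At an unadjusted p under 0.05, limma gave 1 of 9 in *Fcgr2b*-/- compared with wild-type (*Socs3*, background 3.35%) and 2 of 9 in double-deficient compared with *Fcgr2b*-/- (*Socs1* and *Socs3*, background 1.81%). It gave 0 of 9 in double-deficient and in *Sting* gt/gt compared with wild-type (0.424% and 3.76%), and 2 of 9 for the interaction (*Stat3* and *Socs3*, 6.27%). By the exact Mann-Whitney test, 1 gene, *Socs3*, reached the smallest possible p in *Fcgr2b*-/- compared with wild-type where 1.24% of all probes did so in either direction. None did in double-deficient compared with *Fcgr2b*-/- (1.02%), in double-deficient compared with wild-type (0.547%) or in *Sting* gt/gt compared with wild-type (2.04%). The interaction was not run by that test.

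By direction, 8 of 9 genes had a positive difference in *Fcgr2b*-/- compared with wild-type, with a median of 0.59, against −0.06 over all probes. Between double-deficient and *Fcgr2b*-/- kidneys, 8 of 9 were negative with a median of −0.54 (all probes 0.06). These comparisons share the *Fcgr2b*-/- mice. Double-deficient compared with wild-type gave 5 positive and 4 negative values, with a median of 0.05. The *Fcgr2b*-/- mean was the highest of the 4 group means for 7 of 9 genes. In all 27 pairs of neighbouring group means, the mice of the neighbouring groups overlapped.

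The *Fcgr2b*-/- mice differed among themselves. The number of genes that exceeded their wild-type mean by 2-fold or more was 6 of 9 in *Fcgr2b*-/- replicate 1, 3 in replicate 4 and 0 in replicates 2 and 3. In *Sting* gt/gt kidneys the counts were 3, 0, 0 and 2, in double-deficient 0, 0, 1 and 0, and in wild-type 1, 0, 0 and 0. *Fcgr2b*-/- replicate 1 held the highest level of all mice for 5 of 9 genes, compared with 13.9% of all tested probes. Over the 16 arrays the closest pairs of members were *Stat2* with *Socs1* (r = 0.92) and *Socs1* with *Socs3* (r = 0.91), whereas *Jak1* and *Stat3* ran opposite (r = −0.49) and *Ifnar1* and *Ifnar2* had r = −0.02. These are descriptions over arrays that share the genotype differences.

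To ask which members followed the interferon response from mouse to mouse, genotype means were removed and each gene was compared with the mean level of 19 interferon-stimulated genes. *Socs3* (r = 0.96, rho = 0.95), *Socs1* (r = 0.93, rho = 0.92) and *Stat2* (r = 0.93, rho = 0.89) followed it closely over 16 mice. *Ifnar2* (r = 0.88, rho = 0.84) and *Ifngr1* (r = 0.86, rho = 0.74) came next, then *Ifngr2* (r = 0.76, rho = 0.69). Permutation within genotypes, adjusted over 18 relations, gave p between 3e-04 and 0.0126 for these 6 values of r and at most 0.0359 for rho. *Jak1* (r = 0.41, adjusted permutation p = 0.183), *Ifnar1* (r = 0.34, p = 0.392) and *Stat3* (r = 0.10, p = 0.784) did not pass. Among 16382 named genes, 0.464% had an r with this score at least as high as *Socs3*, 2.04% as *Socs1* and 1.94% as *Stat2*, compared with 12.6% for *Ifngr2*.

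For the feedback genes, the relation did not rest on wild-type replicate 1 and *Fcgr2b*-/- replicate 1. Other mice with high *Socs3* in their group, *Fcgr2b*-/- replicate 4 and *Sting* gt/gt replicate 1, were kept in. Without wild-type replicate 1 and *Fcgr2b*-/- replicate 1, r was 0.95 for *Socs3*, 0.92 for *Socs1*, 0.88 for *Stat2*, 0.86 for *Ifnar2*, 0.77 for *Ifngr1* and 0.62 for *Ifngr2*. Within the slides of 8 arrays each, r for *Socs3* was 0.97 and 0.91, for *Socs1* 0.96 and 0.86, for *Stat2* 0.97 and 0.80, for *Ifnar2* 0.95 and 0.92, for *Ifngr1* 0.89 and 0.77, and for *Ifngr2* 0.90 and 0.43. *Stat3* followed the score within *Fcgr2b*-/- mice and ran against it in the other 3 genotypes, in groups of 4 that are too small to test. The white cell score gave similar values, with r of 0.93 for *Socs3*, 0.92 for *Ifngr1*, 0.91 for *Stat2*, 0.89 for *Socs1*, 0.87 for *Ifngr2* and 0.83 for *Ifnar2* (adjusted permutation p between 6e-04 and 0.0057). *Jak1* reached r = 0.60 with it (adjusted permutation p = 0.0232 for r and 0.115 for rho) and 0.37 without those 2 mice, so that this relation rests on them. Interferon targets and white cell markers moved together, and their separate parts were not tested.

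**Figure D3:**
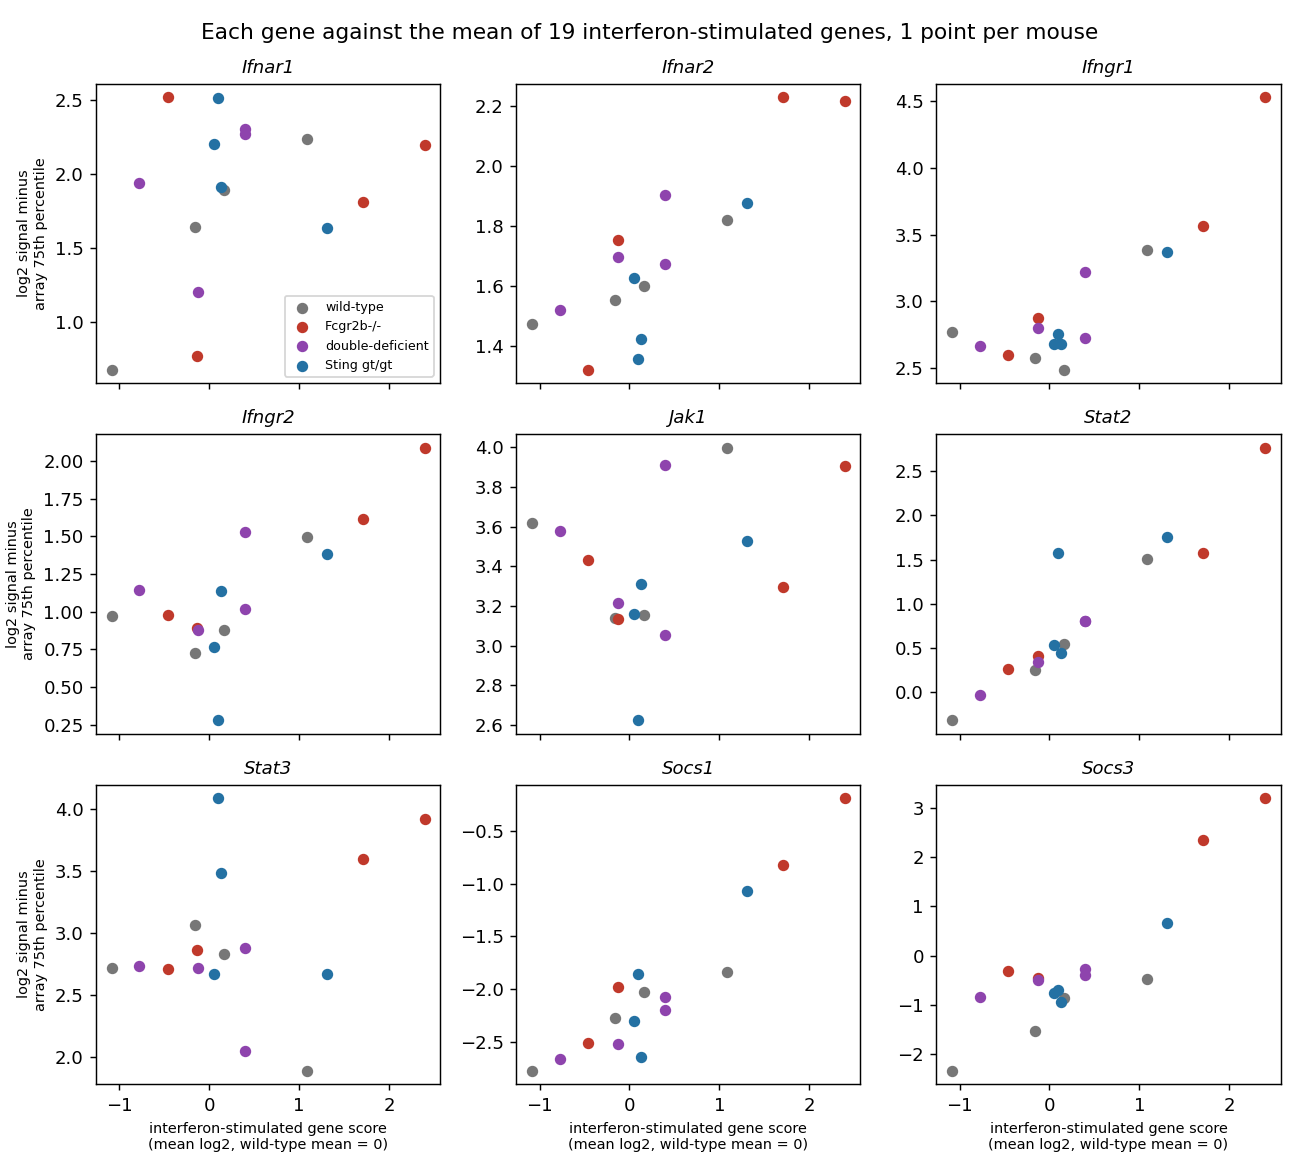
Level of each gene (vertical, log2 signal minus the array's 75th percentile) against the mean level of 19 interferon-stimulated genes relative to wild-type (horizontal, log2), 1 point per mouse, coloured by genotype. *Socs3*, *Socs1* and *Stat2* climb with these genes across all genotypes, whereas *Jak1*, *Ifnar1* and *Stat3* scatter.

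The rest of the pathway was read from lists of 91 genes, of which 78 were tested. None passed the limma threshold in any comparison. At an unadjusted p under 0.05, 16 of 78 were higher and none lower in *Fcgr2b*-/- compared with wild-type (background 3.35% of probes in either direction), and 14 were lower and none higher in double-deficient compared with *Fcgr2b*-/- kidneys (1.81%). By the exact Mann-Whitney test adjusted over all probes, none passed.

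Of 20 interferon genes, 18 had a probe, 9 were tested and 4 were above background on all arrays. *Ifnb1*, *Ifna4*, *Ifna7*, *Ifna12*, *Ifna13*, *Ifna15*, *Ifna16* and *Ifne* were not well above background on any array. *Ifng*, the gene of type II interferon, was above background on 1 wild-type array and on 2 arrays of each other genotype. *Ifna11* was above background on 1 wild-type, 1 *Fcgr2b*-/-, 2 double-deficient and 1 *Sting* gt/gt array. Most of their signals were at background, so no difference is given for either. *Ifnl3*, a type III interferon detected on all arrays, differed by 0.34 (SE 0.21) between *Fcgr2b*-/- and wild-type. The α-interferon genes are close copies of one another, so a probe may read more than 1.

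In *Fcgr2b*-/- compared with wild-type, the remaining receptor, kinase and STAT genes had 1 unadjusted p under 0.05 among 11 (background 3.35% of all probes). *Jak3*, a kinase of lymphocyte cytokine receptors, differed by 0.999 (SE 0.36, limma adjusted p = 1.0) between *Fcgr2b*-/- and wild-type, and by −0.79 (SE 0.36) between double-deficient and *Fcgr2b*-/- kidneys. *Ifnlr1* and *Il10rb*, which form the receptor for type III interferon, differed by 0.24 (SE 0.27) and 0.17 (SE 0.23). *Irf9*, the DNA-binding partner of *Stat2*, differed by 0.72 (SE 0.39) in *Fcgr2b*-/- compared with wild-type, and by −0.73 in double-deficient compared with *Fcgr2b*-/-. *Stat5b* differed by 0.22 (SE 0.21).

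Among 15 other feedback genes, 2 had an unadjusted p under 0.05 (background 3.35% of all probes) and the median difference was 0.04. *Ptpn6*, the phosphatase SHP-1 of blood cells, was 2.44, 1.62, 1.52 and 2.44 in *Fcgr2b*-/- and 0.86, 1.35, 1.32 and 1.11 in wild-type kidneys. All 4 *Fcgr2b*-/- mice were above wild-type and above the double-deficient mice (0.85 log2 above wild-type, SE 0.25, limma adjusted p = 0.791). Of all tested probes, 0.62% were likewise higher than in wild-type without overlap. Between double-deficient and *Fcgr2b*-/- kidneys, 1.02% did not overlap in either direction. *Cish*, a SOCS family member induced by STAT5, differed by 1.29 (SE 0.60) and the phosphatase gene *Ptpn1* by 0.69 (SE 0.38). In the IL-6 family, *Il6ra* differed by 1.34 (SE 0.65) and *Osmr*, the oncostatin M receptor, by 1.6 (SE 0.92). *Il11* was well above background on only 2 of 4 arrays in each of these groups and is given no difference. In *Fcgr2b*-/- compared with wild-type, none of the 9 tested genes of the IL-6 family list had an unadjusted limma p under 0.05. The ligand genes *Il6* and *Osm* were well above background on fewer than 4 arrays and were not tested. For *Il6* these arrays were *Fcgr2b*-/- replicates 1 (−1.59) and 4 (−4.09). For *Osm* they were *Fcgr2b*-/- replicates 1 (−2.49) and 4 (−3.63) and *Sting* gt/gt replicate 1 (−4.70). Their part in the *Socs3* values was not tested.

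The lists of interferon-stimulated genes and STAT3 targets held most of the unadjusted calls, and STAT activity itself was not measured. All 19 interferon-stimulated genes had a positive difference in *Fcgr2b*-/- compared with wild-type, with a median of 0.81. At an unadjusted limma p under 0.05 there were 5 (background 3.35% of all probes). The antiviral *Oas1a* differed by 1.86 (SE 0.60, limma adjusted p = 0.963), *Oas2* by 2.27 (SE 0.83) and *Oasl2* by 1.6 (SE 0.62). In double-deficient compared with *Fcgr2b*-/- kidneys the same 3 differed by −1.74, −1.90 and −1.33. *Oas1a* has close copies that the probe may also read.

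Of 15 STAT3 targets, 13 had a positive difference, with a median of 0.99. At an unadjusted limma p under 0.05 there were 8 (background 3.35% of all probes). *Il1rn*, the IL-1 receptor antagonist, was 0.92, −4.01, −3.96 and −0.70 in *Fcgr2b*-/- kidneys. It was well above background on 3 of 4 *Fcgr2b*-/- arrays and on none of the wild-type arrays, so its difference is a bound. It was at least 7.07-fold higher in *Fcgr2b*-/- than in wild-type, the dim side set at the lowest signal well above background on each array. Replicates 1 and 4 carried most of this difference. The limma adjusted p of 0.133 belongs to the signals as measured, with wild-type at background, and not to the bound. For double-deficient kidneys, with 3 arrays above background, the bound was at least 1.37-fold. *Junb*, an immediate early transcription factor, was 3.44, 2.69, 2.46 and 3.46 in *Fcgr2b*-/- and 1.85, 1.77, 2.33 and 2.12 in wild-type kidneys, a difference of 0.99 (SE 0.28, limma adjusted p = 0.685) without overlap. *Saa1*, an acute phase protein with a close copy in *Saa2*, differed by 0.85 (SE 0.25, limma adjusted p = 0.791), also without overlap. Of all tested probes, 0.62% were likewise higher without overlap. The mean of the 15 STAT3 targets ran from 0.23 to 2.68 in *Fcgr2b*-/-, from −0.30 to 0.36 in wild-type, from 0.02 to 0.45 in double-deficient and from −0.25 to 0.44 in *Sting* gt/gt kidneys, relative to the wild-type mean. *Stat3* itself was high in *Sting* gt/gt replicate 4, whereas no *Sting* gt/gt mouse had a target mean above 0.44.

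**Figure D4:**
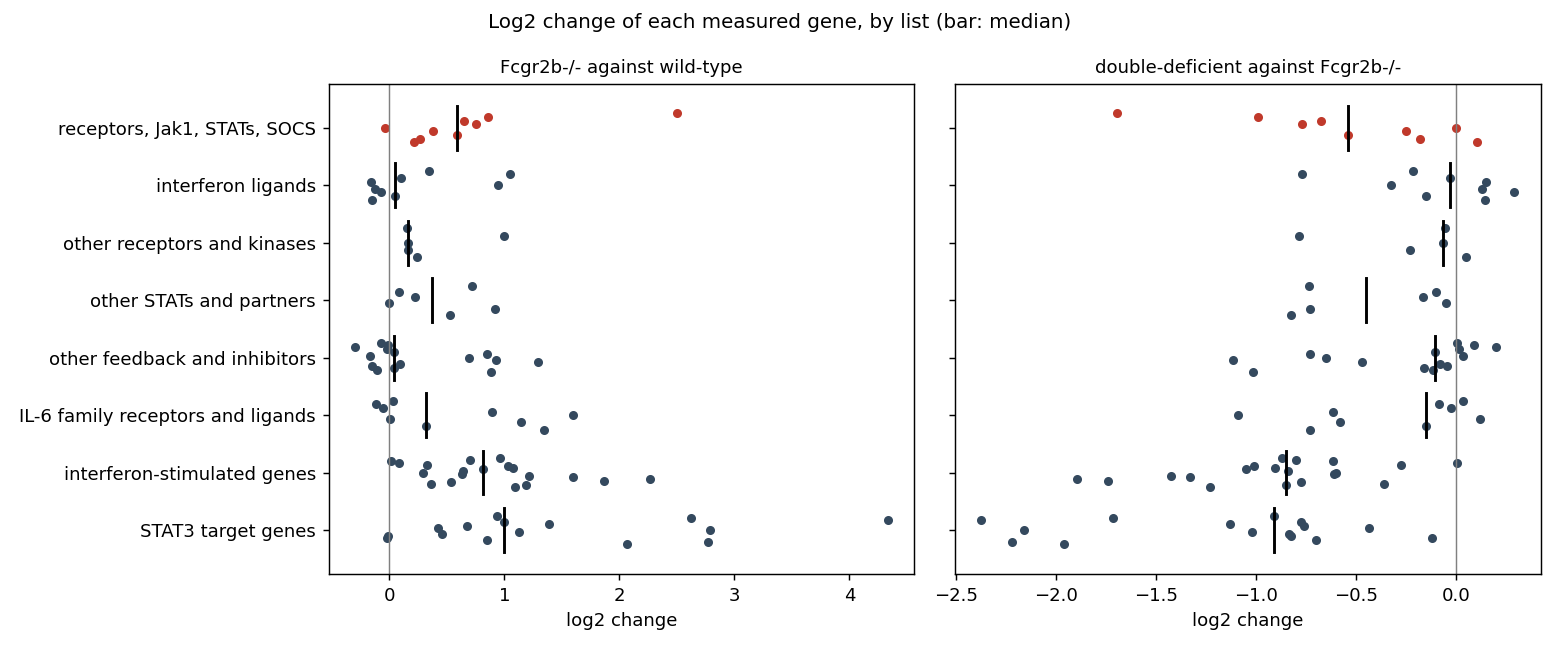
Log2 difference of every tested gene of each list in *Fcgr2b*-/- compared with wild-type and in double-deficient compared with *Fcgr2b*-/- kidneys. Each point is a gene, red points are the 9 genes described here and bars are list medians. The interferon-stimulated genes and STAT3 targets have medians of 0.81 and 0.99 in the first comparison and −0.85 and −0.91 in the second, which shares the *Fcgr2b*-/- mice.

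The named genes whose level was most like that of each member over the 16 arrays were also listed, out of 16382. For *Socs3* they were *Ebi3* (r = 0.99), a subunit of IL-27 and IL-35, the blood cell exchange factor *Vav1* (r = 0.98) and *Snx20* (r = 0.98). For *Socs1* they were *Rgs19* (0.98), *Pglyrp2* (0.96) and *Asf1b* (0.96), and for *Stat2* *Adgrg6*, *Mmp11* and *Vopp1* (each 0.97). *Ifngr1* was most like *Tspan32* (0.98), the kinase gene *Lyn* (0.97) and *S100a4* (0.96), and *Ifnar2* most like *Plac8* (0.95), the chemokine *Ccl12* (0.94) and the nucleic acid sensor *Zbp1* (0.94). *Ifngr2* was most like *Cbfb* (0.97), *Cenpk* (0.95) and *Scarb2* (0.94), and *Jak1* most like *Fbxo33* (0.95), *Cdk19* (0.94) and *Zbtb1* (0.94). *Stat3* was most like *Tcof1*, *Fgd3* and *Pmepa1* (each 0.94), and *Ifnar1* most like *Gdap10* (0.97), *Gm19782* (0.96) and *Gm20597* (0.93). These lists are the highest of many correlations and describe these arrays.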

How the data were processed

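Total RNA from whole kidneys (100 ng, Cy3) was hybridised to one-colour arrays of 62976 spots. The authors deposited the scanner's processed signal intensity per spot, background-corrected by Agilent Feature Extraction (11.0, per the submitters' processing notes), and a table of log2 values that the authors had normalised, whose scale was checked against the scanner signals (lowest r 0.998) and used as an alternative. Agilent's 0 or 1 marks for outlier and above-background spots and its spot and control type codes were used as deposited. Control and outlier spots were left out (0 spots were saturated), spots of a probe were averaged and log2 signal minus the array's 75th percentile was tested with limma 3.58.1 (R 4.3.3) over 16 arrays, 1 mean per genotype, on 35628 probes well above background on at least 4 arrays. Benjamini-Hochberg adjustment ran over all of them. Python 3.11.15 with scipy 1.17.1 was used otherwise. Accessions gave 58.3% of probes a RefSeq symbol. The array design is on mm9, and promoter positions are on GRCm38.p6. The text names all 9 members and, per pathway list, the 3 genes with the smallest limma p in *Fcgr2b*-/- compared with wild-type, of which some are not reported here. Members and lists were chosen with earlier results of these data known. The labels do not say whether mice were littermates. Background correction, normalisation, scaling, probe filter, probe choice, slide and replicate blocks, the Mann-Whitney test and leaving out each mouse were tried as alternatives. The fit was tested on simulated data. The number of arrays limits the precision.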

Additional observations from a re-analysis of the deposited data

Results flagged for a closer look

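Of 36 groups of 4 mice (9 genes in 4 genotypes), 2 held a mouse far from the other 3 by Dixon's ratio of its gap to the group's range. Both were *Sting* gt/gt replicate 1, which was the highest mouse for *Ifngr1* (3.37 compared with 2.68 to 2.76, ratio 0.891) and for *Socs3* (0.66 compared with −0.94 to −0.69, ratio 0.846). Chance alone marks about 1 in 20 groups. Without this mouse the difference between *Sting* gt/gt and wild-type was −0.10 for *Ifngr1* and 0.51 for *Socs3* on the log2 scale.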

How the results depend on the processing

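No setting gave a limma call of a member gene, and the smallest adjusted p for a member in any setting was 0.162 (*Socs3*, *Fcgr2b*-/- compared with wild-type). By the unadjusted exact Mann-Whitney test with the 2-fold threshold, 1 member, *Socs3*, and 1 other pathway gene, *Il1rn*, were called in *Fcgr2b*-/- compared with wild-type. Of all tested probes, 0.34% were likewise higher without overlap and at least 2-fold. *Ptpn6*, *Junb* and *Saa1* had the same exact p but were under 2-fold, as did *Socs6* (−0.15, named after its value was seen). In double-deficient compared with wild-type, 1 other pathway gene, *Il1rn*, was called, on wild-type signals at background, and its bound there was at least 1.37-fold. Leaving out mice in turn gave 0 to 1 calls of other pathway genes in *Fcgr2b*-/- compared with wild-type. The difference for *Socs3* then ran from 1.83 (without *Fcgr2b*-/- replicate 1) to 3.05, and in double-deficient compared with *Fcgr2b*-/- from −2.25 to −1.03 (without *Fcgr2b*-/- replicate 1). Of 45 differences of members, 29 kept their sign in all settings run. The 16 others were at most 0.26 in size.

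In *Fcgr2b*-/- compared with wild-type, the sign turned for *Jak1* under quantile normalisation (0.11) and in the authors' table (0.11). In double-deficient compared with *Fcgr2b*-/-, it turned for *Ifnar1* with slide as a block (−0.18) and with the median of its probes (−0.20), and for *Jak1* with normexp (0.037), scaling by the array median (0.036) and slide (0.12). In double-deficient compared with wild-type, it turned under median scaling for *Ifnar2* (−0.029) and *Ifngr1* (−0.071), with normexp for *Jak1* (0.014) and *Stat3* (0.00625), under quantile normalisation for *Jak1* (0.024) and *Stat3* (0.027), in the authors' table for *Jak1* (0.038), *Stat2* (0.0030) and *Stat3* (0.014), with slide for *Jak1* (0.021) and *Stat2* (0.066), and with the median of probes for *Stat3* (0.12). In *Sting* gt/gt compared with wild-type, it turned for *Ifnar2* under quantile normalisation (0.029), in the authors' table (0.031) and with the median of probes (0.42), and for *Ifngr1* under median scaling (−0.18). In the interaction it turned under median scaling for *Ifnar2* (0.14) and *Ifngr2* (0.16), and with slide for *Ifngr2* (0.012). Median scaling moved the median of all probes to −0.21, −0.11, −0.24 and 0.32 in *Fcgr2b*-/-, double-deficient and *Sting* gt/gt compared with wild-type and in the interaction. The cause was not tested for any of these.

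With 1 mouse left out, signs also turned within these ranges. In *Fcgr2b*-/- compared with wild-type they were −0.10 to 0.56 for *Ifnar1* and −0.19 to 0.14 for *Jak1*. In double-deficient compared with *Fcgr2b*-/- they were −0.25 to 0.35 for *Ifnar1* and −0.16 to 0.15 for *Jak1*. In double-deficient compared with wild-type they were −0.076 to 0.24 for *Ifngr1*, −0.0024 to 0.29 for *Ifngr2*, −0.19 to 0.14 for *Jak1*, −0.29 to 0.32 for *Stat2* and −0.28 to 0.15 for *Stat3*. In *Sting* gt/gt compared with wild-type they were −0.14 to 0.032 for *Ifnar2*, −0.10 to 0.26 for *Ifngr1*, −0.29 to 0.077 for *Ifngr2* and −0.039 to 0.49 for *Socs1*. In the interaction they were −0.33 to 0.11 for *Ifngr2*.

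With scaling by the array median, the correlation with the interferon-stimulated genes was −0.00464 for *Ifnar1*, −0.10 for *Stat3*, 0.52 for *Ifnar2* and 0.57 for *Ifngr2*, and that with the white cell score −0.15 for *Stat3*, 0.43 for *Ifnar2* and 0.32 for *Jak1*. Under quantile normalisation *Jak1* reached 0.69 with these genes. With the replicate number as a block, 0 members were called and *Socs3* had an adjusted p of 0.276 (2.50) in *Fcgr2b*-/- compared with wild-type. Same-numbered mice did not deviate together (median r −0.06, from −0.60 to 0.69), and 5 of 16 arrays were closest to one of their own number.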
